A study of Mus musculus with 18 samples.

Results

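The variable (V) segments of the T cell receptor alpha chain were followed in RNA sequencing libraries of mouse CD8 T cells. The members are all rows of the expression table whose symbol is Trav followed by a number and whose value, summed over the 18 libraries, was above 0: 114 of 128 such rows, in a table of 46983 genes. They were summed by family number into 22 families, and each family was expressed as its share of the library's Trav sum, here called its usage. Wild-type mice gave 4 libraries of naive cells (low surface CD44) and 4 of memory-phenotype cells (high CD44), per the labels. Mice with both copies of Dock2 of the Hsd allele, labelled Dock2-/- and called Dock2-deficient here, gave 5 of each. Every library has C57BL/6J as its strain in the labels, but the name C57L6NHsd also appears in the description of each Dock2-deficient library. No treatment, age or sex is given, and the labels do not say whether replicates came from separate animals. A p-value here therefore reflects the spread among these libraries alone, and an unknown part of that spread may be technical.

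A T cell builds its alpha chain in the thymus by joining a V segment to a J segment upstream of the constant gene Trac, and each mature cell then transcribes the segment it joined. The set of V segments seen in a population of T cells is therefore a coarse picture of its receptor repertoire. The mouse locus holds large duplicated blocks, so many segments have near-identical copies, marked d or n in their names, and the delta chain's gene segments lie inside it. Some alpha V segments are also used by delta chains, which is shown by DV in the name. Trav11 joined to Traj18 makes the invariant receptor of natural killer T cells, and Trav1 joined to Traj33 that of mucosal-associated invariant T cells.

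All 128 rows lie on the plus strand of chromosome 14 of mm10, between positions 52427928 and 53977678, upstream of Trdc (54142851 to 54148868) and Trac (54220521 to 54224206), per GENCODE M21. Of the 114 members, 106 are annotated as functional V genes and 8 as pseudogenes. The 14 rows at 0 in every library were 12 pseudogenes and the V genes Trav11 and Trav23. By copy, 36 members carry the letter d, 30 the letter n and 48 neither, and 10 have a DV name.

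The copies explain why families, and not rows, are the main unit. In 15 pairs, 30 members in all, both rows have the same coding sequence. In 14 of them these are a d row and an n row, and in the other they are Trav6d-6 and Trav6-6. For all pairs but 1 the annotated transcripts are identical too, and the rows of each pair held equal values in all 18 libraries. The remaining pair was Trav12d-3 and Trav12n-3, whose transcripts differ in length (347 and 353 bases). A stretch of their second coding exon is shown with the same stretch of the third copy, Trav12-3. The sequences are from GENCODE M21 (mm10, plus strand), and capitals mark the bases that differ between the copies within the stretch: chr14:52930085-52930165 for Trav12d-3, chr14:53241047-53241127 for Trav12n-3 and chr14:53622048-53622128 for Trav12-3.
Trav12d-3: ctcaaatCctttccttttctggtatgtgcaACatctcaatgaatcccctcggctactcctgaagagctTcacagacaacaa
Trav12n-3: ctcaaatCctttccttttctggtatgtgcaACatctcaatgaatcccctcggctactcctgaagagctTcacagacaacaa
Trav12-3: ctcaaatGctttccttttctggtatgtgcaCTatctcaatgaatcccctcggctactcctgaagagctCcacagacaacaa

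Trav12-3 differs from Trav12d-3 at 11 of 347 coding bases and can be told apart, whereas Trav12d-3 and Trav12n-3 cannot be told apart over the coding sequence. Trav12d-3 was at 0 in 7 libraries, Trav12n-3 was at 0 in another 5, and only 6 libraries had both above 0. Their sum was never near 0: it ran from 16.8 to 45.9, with a median of 27.3, in the normalized signal of the table (RSEM expected counts scaled by 1 factor per library). A change in such a row is thus not a measured change in that copy.

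The Trav16 family is shown because the only single-row call fell in it. Its stretch comes from the second coding exon, at chr14:53047682-53047771 for Trav16d-dv11, chr14:53351482-53351571 for Trav16n and chr14:53743566-53743655 for Trav16 (GENCODE M21, mm10, plus strand), with capitals where the copies differ within the stretch.
Trav16d-dv11: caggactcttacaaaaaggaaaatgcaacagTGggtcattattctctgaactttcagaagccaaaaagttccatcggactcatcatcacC
Trav16n: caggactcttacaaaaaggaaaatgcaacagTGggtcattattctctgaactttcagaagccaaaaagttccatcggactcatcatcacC
Trav16: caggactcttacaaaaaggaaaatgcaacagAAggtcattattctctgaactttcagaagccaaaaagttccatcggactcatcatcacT

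Trav16 and Trav16n differ at 5 of 350 aligned coding bases (98.6% identity) and by 3 gap bases. Within the coding sequence a read identifies the copy only where it covers such a difference.

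Trav11, the segment of invariant natural killer T cells, has the same difficulty. The annotated coding sequence of Trav11d is the same as that of Trav11 except for the last base of Trav11, which is in capitals at the end of the Trav11 sequence (chr14:52824853-52824912 for Trav11d and chr14:53519799-53519859 for Trav11, GENCODE M21, mm10, plus strand).
Trav11d: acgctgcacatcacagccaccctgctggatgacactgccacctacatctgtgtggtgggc
Trav11: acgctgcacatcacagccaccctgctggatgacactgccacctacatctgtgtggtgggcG

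Trav11 was at 0 in all 18 libraries while Trav11d was above 0 in 13, so only their family sum can be read.

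**Figure D1:**
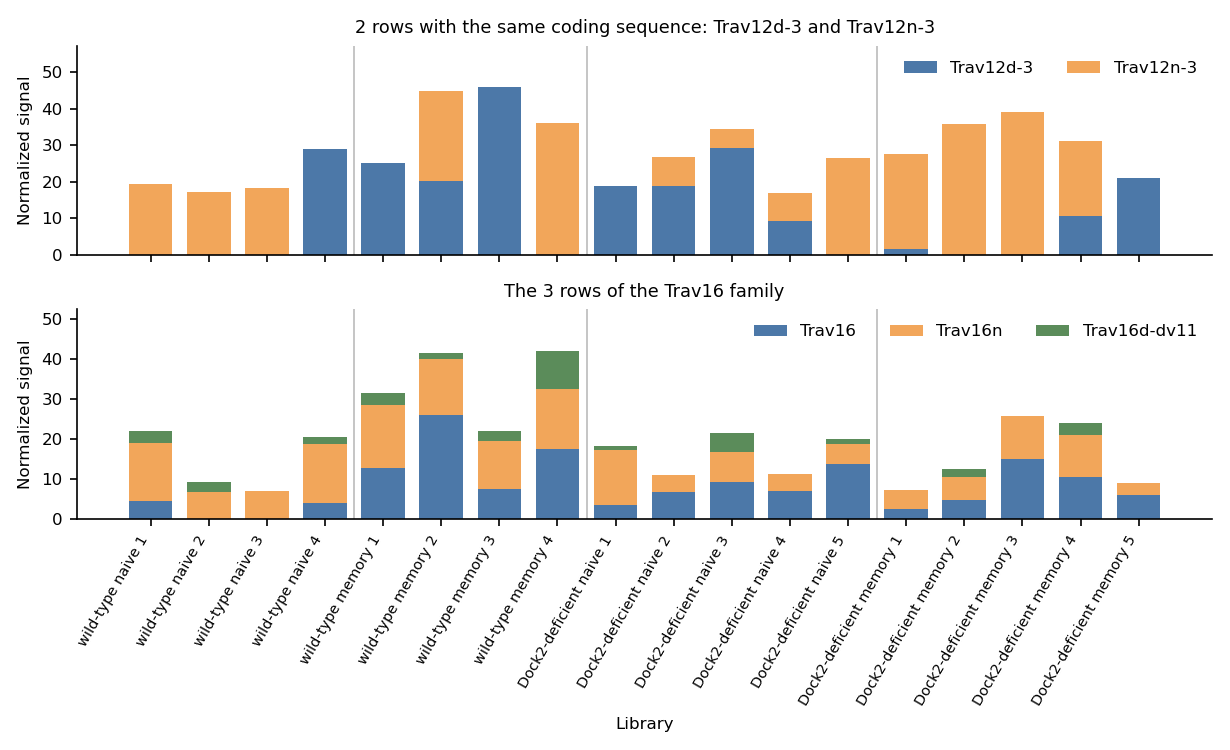
Normalized signal (vertical axis) of Trav12d-3 and Trav12n-3 (top) and of the 3 rows of the Trav16 family (bottom), stacked in each of the 18 libraries, with grey lines between the groups. The signal of the Trav12 pair sits wholly in 1 row in 12 libraries, and the Trav16 row is at 0 in wild-type naive 2 and 3.

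Whole coding sequences of different families are much less alike than the copies. Between the largest rows of 20 families the identity had a median of 57.2% and a highest value of 75.5%. Within families the median ran from 79.9% in Trav6 to 99.1% in Trav10. Family sums therefore rest on sequence that reads can distinguish better than single copies.

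Depth sets what can be seen. The libraries held 2215987 to 8257768 expected reads, of which only 238 to 1277 fell on Trav rows, and 66 of the 114 members never reached a value of 10. The ribosomal RNA row Rn18s-rs5 alone took 37.0 to 69.4% of a library's total, so the depth left for other genes was much lower. As checks of the labels, Cd44 was 3.39 to 9.78 in wild-type naive and 124 to 220 in wild-type memory libraries, and 0 to 21.7 and 172 to 222 in the Dock2-deficient ones. Dock2 itself was 288 to 844 in wild-type and 61.0 to 373 in Dock2-deficient libraries; these ranges overlap, and the labels do not say how the Hsd allele changes the transcript. The X-inactivation RNA Xist ran from 1820 to 3887 in wild-type libraries and was also high in Dock2-deficient naive 1 and memory 1 (2217 and 2593), but it was 0 to 5.44 in the other 8 Dock2-deficient libraries, so sex, substrain and genotype cannot be told apart. The Y-linked genes Ddx3y, Eif2s3y, Kdm5d and Uty summed to 6.42 and 7.53 in Dock2-deficient naive 1 and memory 1. In the other 8 they summed to 167 to 273. Each Dock2-deficient group thus held cells of more than 1 animal, but how many is not given. The CD8 T cell markers Cd8a, Cd8b1, Cd3e and Trac summed to 4811 to 10169. Results were also computed without wild-type memory 4 and Dock2-deficient memory 5, the libraries with the highest and the lowest Rn18s-rs5 share (69.4% and 37.0%). In Trav usage, described below, Dock2-deficient memory 5 lay farthest from the others, but several libraries lay farther than wild-type memory 4.

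All 4 groups drew on the same few large families. Trav12 took 21.4% of the Trav sum on average over the 18 libraries, Trav9 16.1%, Trav7 11.1%, Trav6 9.32%, Trav14 8.85% and Trav13 7.60%. Together these 6 families held 68.0% to 81.1% of a library's Trav sum. Trav3 (6.18%), Trav8 (4.78%), Trav16 (3.51%), Trav4 (2.998%), Trav10 (1.88%), Trav5 (1.81%) and Trav15 (1.32%) followed, and the remaining 9 families each averaged below 1%. With each row divided by its exon length, the scale on which genes can be compared, Trav12 still led at 21.3% and Trav9 came to 12.5%, close to Trav7 at 11.8%.

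Families also differ in their number of members, which does not follow the order of their shares. Trav6 has 15 members and Trav7 has 13, against 9 in Trav12 and 3 in Trav16. Per member, Trav12 held 2.38% of the Trav sum, Trav9 1.47% and Trav6 0.622%. Trav12-2 (53616315 to 53616914) was the largest single row, at a mean signal of 28.2 and 66.2 per kb of exon. The largest rows of the other leading families were Trav9-2 (mean signal 20.8), Trav7-4 (11.6), Trav13d-1 (11.5), Trav6-7-dv9 (6.94) and Trav14-1 (6.89). Among the smaller families described below they were Trav16n (9.45), Trav5-4 (6.41), Trav4-3 (5.39) and Trav15d-1-dv6d-1 (1.53).

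**Figure D2:**
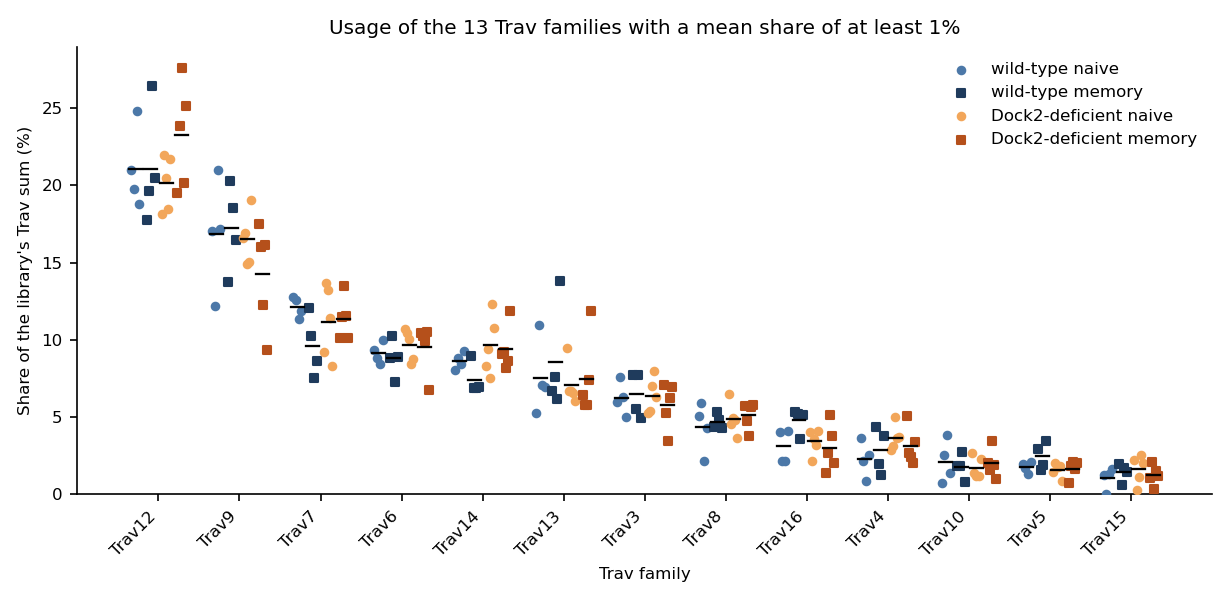
Share of each library's Trav sum (vertical axis, percent) taken by the 13 families with a mean share of at least 1% (horizontal axis). Points are libraries, coloured by group, and black bars are group means. The groups overlap in every family shown, from Trav12 at a mean of 21.4% to Trav15 at 1.32%.

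Part of the scatter between libraries is counting. For each family the SD within groups was set beside the SD that its number of reads alone would give. The ratio was 2.07 for Trav13, 1.74 for Trav9 and 1.56 for Trav12, and below 1.5 for the other 10 families with a mean share of at least 1% (0.894 for Trav6). Counting error here is a lower limit, since PCR copies are not independent molecules.

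Memory cells were compared with naive cells in wild-type mice to see whether the memory-phenotype pool uses other V segments. No family was called. Trav12 took 21.0, 19.7, 24.8 and 18.8% in naive libraries 1 to 4 and 17.8, 19.7, 26.4 and 20.5% in memory libraries 1 to 4. The ranges overlap almost completely, with a log2 difference of -0.01 (SE 0.19; adjusted p = 0.997, limma). Trav7 was 12.8, 12.6, 11.4 and 11.9% in naive and 12.03, 10.2, 7.49 and 8.60% in memory libraries. Most memory values lie lower, but memory 1 lies within the naive range, and the log2 difference of -0.36 (SE 0.22) had an adjusted p of 0.594.

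In the family test 13 families had enough signal (at least 10 in at least 4 libraries on the scale of the median Trav sum) and entered a fit with all other genes of the table. In wild type 0 of 13 families passed the adjusted p threshold of 0.05 in limma, against 2.51% of all 9425 features, and 0 of 13 had an unadjusted p under 0.05, against 12.1%. On the deposited scale, without dividing by the Trav sum, 0 of 13 were called too, but 7 of 13 had an unadjusted p under 0.05, all higher in memory cells, with a median log2 difference of 0.69. None of the 13 families had groups that did not overlap, against 8.23% of all features. The 95% interval of the log2 difference lay within 2-fold in 8 of the 13, so a change of that size is outside the interval for those 8 families only. The median log2 difference of the 13 families was 0.04, and that of all features was -0.02.

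The families of at least 1% share with the widest differences in wild type were Trav15 and Trav16, both small. Trav15, whose rows include DV segments shared with delta chains, took 1.20, 0, 1.26 and 1.58% in naive and 1.96, 0.547, 1.66 and 1.39% in memory libraries. Its log2 difference of 0.68 (SE 0.73; adjusted p = 0.812) turned to -0.06 without wild-type naive 2, the library at 0. Trav16 took 4.02, 2.10, 2.10 and 4.07% in naive and 5.32, 5.17, 3.54 and 5.12% in memory libraries. All memory values but that of memory 3 lie above all naive values, and the log2 difference was 0.66 (SE 0.39; adjusted p = 0.556).

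The Dock2-deficient libraries gave 0 of 13 families called between memory and naive cells (2.83% of all features) and 0 of 13 at an unadjusted p under 0.05 (13.4%). No family separated the groups (3.94% of all features), and 9 of the 13 intervals lay within 2-fold. Trav12 took 18.2, 22.0, 20.5, 18.5 and 21.7% in naive and 19.5, 23.8, 27.6, 20.2 and 25.2% in memory libraries. Its mean was 20.2% ± 1.78 (SD, n = 5) in naive and 23.3% ± 3.40 (SD, n = 5) in memory cells, with overlapping ranges and a log2 difference of 0.20 (SE 0.17; adjusted p = 0.670). Trav9 had means of 16.5% ± 1.69 and 14.2% ± 3.37 (SD, n = 5 each). Its lowest value, 9.31%, was that of memory 5. The widest differences were those of Trav16 (-0.28, SE 0.35) and Trav15 (-0.27, SE 0.66). Trav16 ran from 2.15 to 4.06% in naive and from 1.35 to 5.11% in memory libraries, so the memory range encloses the naive one.

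Dock2-deficient and wild-type cells were compared within each state to see whether the V segments differ by genotype. In naive cells 0 of 13 families were called (0.138% of all features) and 0 of 13 had an unadjusted p under 0.05 (6.08%). None separated the genotypes (2.71%), and 9 intervals lay within 2-fold. Trav4 took 3.61, 2.11, 0.841 and 2.49% in wild-type naive and 2.83, 3.09, 4.97, 3.65 and 3.66% in Dock2-deficient naive libraries. Most Dock2-deficient values are higher, but wild-type naive 1 falls among them, and the log2 difference was 0.76 (SE 0.42; adjusted p = 0.884). Trav15 had a log2 difference of 0.75 (SE 0.70) between values of 0 to 1.58% and 0.268 to 2.51%.

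In memory cells 0 of 13 families were called (0.0531% of all features), and 1 of 13 had an unadjusted p under 0.05 (16.4%). On the deposited scale these were 0 and 4 of 13, all 4 lower in Dock2-deficient cells. The family with such a p on the share scale was Trav16: 5.32, 5.17, 3.54 and 5.12% in wild-type memory libraries, against 1.35, 2.62, 5.11, 3.77 and 1.98% in the Dock2-deficient ones. Dock2-deficient memory 3 and 4 lie within the wild-type range and the other 3 below it. The log2 difference was -0.77 (SE 0.37; unadjusted p = 0.0499, adjusted p = 0.305). Trav5 followed at -0.55 (SE 0.41; adjusted p = 0.499), from values of 1.57 to 3.41% in wild type and 0.673 to 2.04% in Dock2-deficient mice. No family separated the genotypes (4.44% of all features), and 8 intervals lay within 2-fold.

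The difference between the genotypes in the change from naive to memory cells (the interaction) gave 0 of 13 families called (0.0318% of all features), 0 of 13 at an unadjusted p under 0.05 (5.19%; 2 of 13 on the deposited scale) and 7 intervals within 2-fold. Trav15 (-0.95, SE 0.98) and Trav16 (-0.94, SE 0.52) had the widest values, with adjusted p-values of 0.856 and 0.820.

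**Figure D3:**
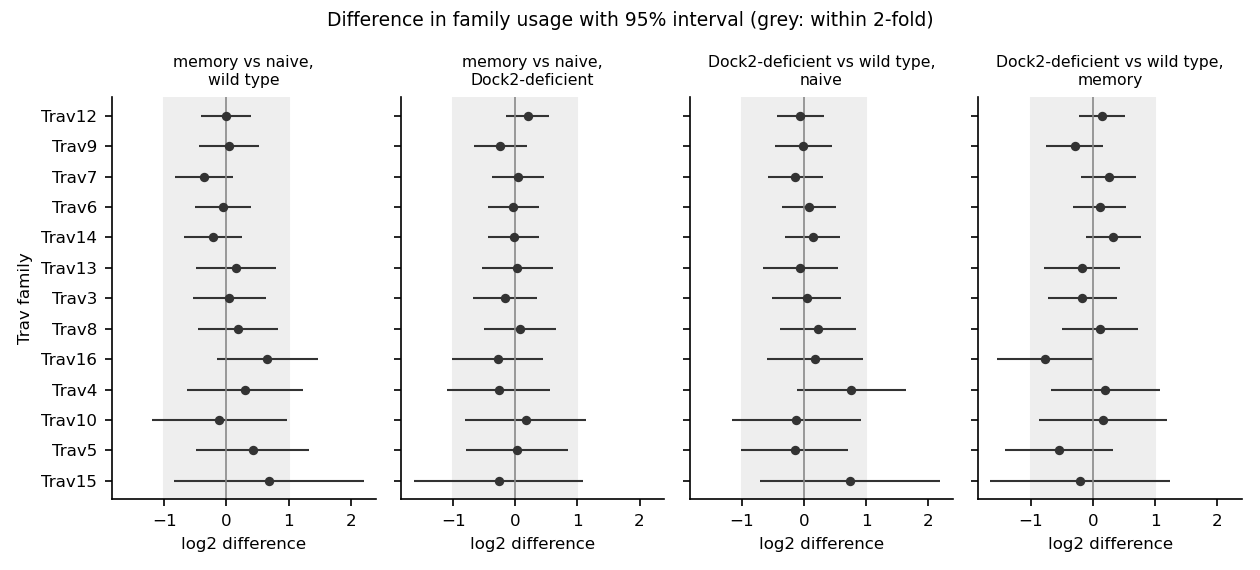
Log2 difference in usage (horizontal axis) with its 95% interval from limma for the 13 tested families (vertical axis) in 4 comparisons; grey marks differences within 2-fold. In each panel 8 or 9 of the 13 intervals stay within the grey band, and the wide ones belong to small families such as Trav15.

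The distance between 2 whole usage profiles can be given as the percentage points that would have to move from some families to others. Between libraries of the same group its median was 13.9 points in wild-type naive, 13.1 in wild-type memory, 11.3 in Dock2-deficient naive and 14.4 in Dock2-deficient memory cells. Between memory and naive libraries the median was 12.5 points in wild type, against 10.9 points in Dock2-deficient mice. Between the genotypes it was 11.6 points for naive cells, against 14.2 points for memory cells. Profiles of different groups were thus about as far apart as those of the same group. Dock2-deficient memory 5 was the farthest from all others, at a median of 16.7 points, with the lowest Trav9 share (9.31%) and a Trav13 share of 11.8%.

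The number of families in effective use, the exponential of the Shannon entropy of the shares, was as similar. It was 10.7 ± 1.16 (SD, n = 4) in wild-type naive, 10.9 ± 0.901 (n = 4) in wild-type memory, 10.9 ± 0.601 (n = 5) in Dock2-deficient naive and 10.6 ± 0.469 (n = 5) in Dock2-deficient memory libraries. The lowest value was 9.01, in wild-type naive 3, which has among the fewest Trav reads (238). The highest was 12.3, in wild-type memory 1. All group means lie within 1 SD of each other.

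As background, V segments nearer to the J segments take part in earlier rounds of joining in the thymus, and distal ones more in later rounds. With the 128 rows split into the 64 farther from Trac and the 64 nearer, 58 and 56 of them were members. The median level was 4.39 per kb of exon in the distal members and 11.7 in the proximal ones, each a mean over the 18 libraries. Across the 114 members the level per kb and the distance to Trac had a Pearson r of -0.24 and a Spearman rho of -0.23; rows are not independent replicates, and copies share reads. The distal members gave 39.2% ± 5.16 (SD, n = 4) of the Trav sum in wild-type naive, 36.0% ± 3.59 (n = 4) in wild-type memory, 38.5% ± 4.35 (n = 5) in Dock2-deficient naive and 36.3% ± 3.42 (n = 5) in Dock2-deficient memory libraries. The ranges overlap throughout, from a lowest library of 31.1% to a highest of 44.0%. The cut falls between copies with the same coding sequence, with Trav12d-3 distal and Trav12n-3 proximal. Their signal was all in the distal row in wild-type memory 3 (45.9) and all in the proximal row in memory 4 (36.0). The distal share of a library thus depends in part on how reads were shared between copies.

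**Figure D4:**
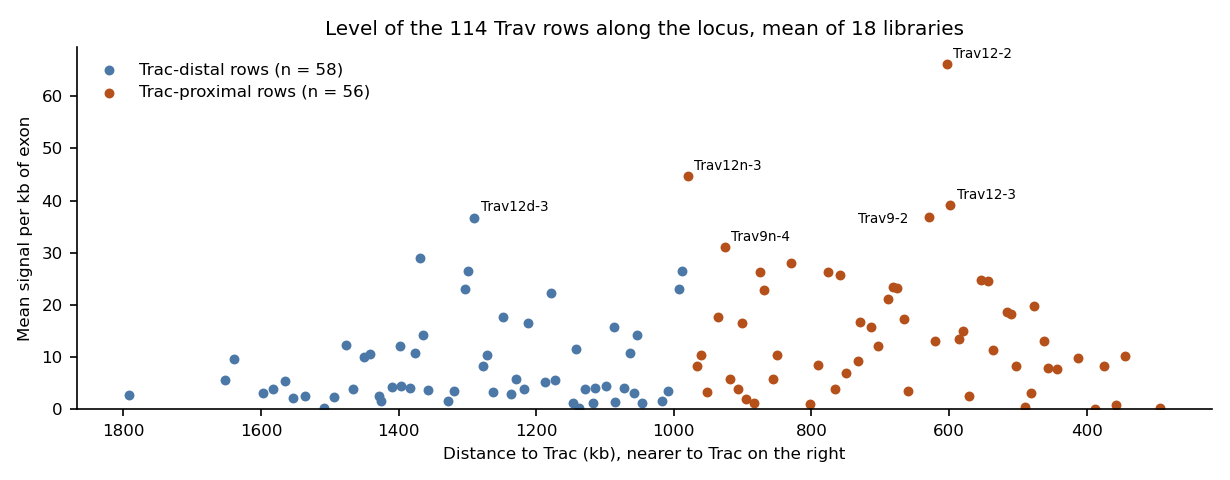
Mean signal per kb of exon over the 18 libraries (vertical axis) of the 114 members against their distance to Trac in kb (horizontal axis), in the distal and the proximal part of the locus. Trav12-2 stands highest at 66.2, and low rows occur along the whole locus.

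The shares of the duplicated blocks were also read. Rows with the letter d gave 19.9 to 30.9% of a library's Trav sum, rows with n 19.6 to 30.6% and rows without either 43.2 to 56.2%. Since reads are shared among copies, the split between d and n rests in part on the authors' estimation. Rows d and n with identical transcripts held equal values in every library, so similar shares do not show that the blocks were used alike. The 8 pseudogene members together gave 0 to 1.27%.

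The level of the whole locus was read beside its composition. The Trav sum was 548, 430, 332 and 499 in wild-type naive libraries and 592, 804, 620 and 819 in wild-type memory libraries. On this scale every memory library lies above every naive one, and the ratio of means was 1.57. As a share of the library total without Rn18s-rs5, a ribosomal RNA row, and mitochondrial genes, the ratio was 1.496 and the groups overlapped: wild-type naive 1 (0.0474%) lay above memory 1 (0.0442%) and memory 3 (0.0406%). The Dock2-deficient values were 450, 507, 608, 352 and 491 for naive libraries, against 527, 471, 504, 633 and 446 for memory libraries, which overlap, with a ratio of 1.07. As a share of the library total the direction turned, with means of 0.0358% in naive and 0.0321% in memory cells and a ratio of 0.897. All wild-type memory libraries but memory 1 and 3 lie above the highest Dock2-deficient memory library (633). These sums over the members are a description and were not tested. In bulk libraries fewer cells of a type and less RNA per cell cannot be told apart.

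The constant gene Trac, present in the transcript of every alpha chain, was compared with the Trav sum. Their Pearson r over the 18 libraries, which include the group differences, was -0.06, but in wild type Trac too was higher in every memory than in every naive library. Trac was 570 to 755 in wild-type naive, 766 to 861 in wild-type memory, 564 to 859 in Dock2-deficient naive and 600 to 1594 in Dock2-deficient memory libraries, the highest value being that of memory 5, where the Trav sum was 446. The tested genes whose log2 values were most like the Trav sum were Coro2a (r = 0.89), Lgals3bp (r = 0.88) and Arhgap26 (r = 0.87), over the same 18 libraries.

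**Figure D5:**
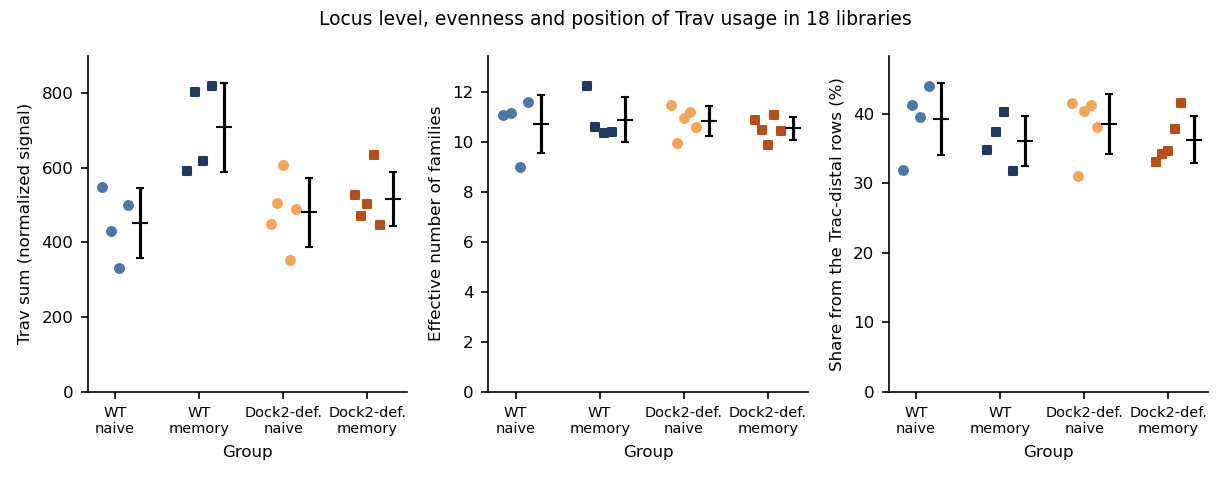
Trav sum in normalized signal (left), effective number of families (middle) and share of the Trav sum from the rows distal to Trac (right) in each library, with the group mean and SD in black beside the points (WT, wild type; Dock2-def., Dock2-deficient). The Trav sum of wild-type memory libraries is 592 to 819 on this scale, above the 332 to 548 of wild-type naive ones, while the other measures overlap.

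Single rows were tested as deposited, without dividing by the Trav sum, and 25 Trav rows had enough signal. These include the pairs Trav3d-3 and Trav3n-3, Trav9d-3 and Trav9n-3, and Trav12d-2 and Trav12n-2. The rows of each pair hold equal values, so each pair counts 1 measurement as 2 rows in the counts and medians. In wild type 1 of 25 rows was called between memory and naive cells (2.52% of all 9437 genes) and 5 of 25 had an unadjusted p under 0.05 (12.1%), all higher in memory cells: Trav16, Trav9n-4, Trav12-2, Trav13-1 and Trav6-7-dv9. For 4 of 25 rows the groups did not overlap (8.27% of all genes): Trav16, Trav12-2, Trav13-1 and Trav9n-4. The median log2 difference of the 25 rows was 0.60, beside -0.02 over all genes, and the Trav sum moved the same way. The filter ignored groups, for these rows and all genes alike, so a row could pass on memory libraries alone.

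The called row was Trav16 (ENSMUSG00000076855, 53743104 to 53743705). Its signal was 4.28, 0, 0 and 3.85 in wild-type naive and 12.7, 25.9, 7.28 and 17.3 in wild-type memory libraries. All memory values are above all naive ones, with a log2 difference of 2.77 (SE 0.67; adjusted p = 0.0255, limma) on the log2(value + 1) scale. The filter asked for at least 10 in at least 4 libraries of any group. In wild type only memory 1, memory 2 and memory 4 reached 10, and the other libraries that did were Dock2-deficient. The row thus entered the test partly through the group in which it was higher. The near-copy Trav16n was 14.8, 6.64, 6.99 and 14.9 in naive and 15.7, 14.1, 12.1 and 15.3 in memory libraries, which overlap (0.46, SE 0.48). Leaving out 1 of the 8 wild-type libraries at a time ended the call in 5 of 8 cases (limma, adjusted p = 0.0143 to 0.102 over the 8). These were the fits without naive 2, naive 3, memory 1, memory 2 or memory 4. Without both wild-type memory 4 and Dock2-deficient memory 5 the adjusted p was 0.0844. With no filter on low values Trav16 was not called (adjusted p = 0.0648) and the 1 called row was the pseudogene Trav8-2, whose highest naive value was 1.40 and lowest memory value 2.78 (1.77, SE 0.39; adjusted p = 0.0357), which the filter leaves out. In Dock2-deficient libraries Trav16 was 3.30 to 13.7 in naive and 2.34 to 14.9 in memory cells, a log2 difference of -0.14 (SE 0.60). The interaction of -2.91 (SE 0.90) had an adjusted p of 0.819.

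Trav12-2, the most abundant row, was 35.5, 14.6, 17.0 and 16.8 in wild-type naive and 40.3, 35.7, 42.4 and 41.3 in wild-type memory libraries. The lowest memory library is only just above naive 1, and the log2 difference of 0.98 (SE 0.30) had an adjusted p of 0.105. Trav9n-4 was 16.8, 3.33, 0 and 19.0 in naive and 21.3, 34.9, 34.3 and 34.8 in memory libraries (2.34, SE 0.66; adjusted p = 0.0687). As shares of the Trav sum their families were level: Trav12 had means of 21.1% in both states, and Trav9 of 16.9 and 17.2%.

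In Dock2-deficient mice 0 of 25 rows were called between memory and naive cells by limma (2.82% of all genes), 0 of 25 had an unadjusted p under 0.05 (13.4%) and 0 of 25 separated the groups (3.93%). Between the genotypes in naive cells 0 of 25 were called (0.138%) and 2 of 25, Trav16 and Trav9n-4, had an unadjusted p under 0.05 (6.1%). Groups did not overlap for 1 of 25 (2.71%), Trav13d-1: 9.78 to 21.7 in wild-type and 4.27 to 9.35 in Dock2-deficient libraries (-0.95, SE 0.47; adjusted p = 0.841). In memory cells 0 of 25 were called (0.053%), 3 of 25 had an unadjusted p under 0.05 (16.4%), namely Trav16n and the identical pair Trav9d-3 and Trav9n-3. Groups did not overlap for 1 of 25 (4.44%), which was Trav16n, at 12.1 to 15.7 in wild-type and 2.91 to 10.8 in Dock2-deficient libraries (-1.07, SE 0.46; adjusted p = 0.283). The interaction gave 0 of 25 called (0.0318%) and 3 of 25 at an unadjusted p under 0.05 (5.21%): Trav16, Trav9n-4 and Trav12d-3.

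The segments of invariant T cells were rare. Trav11 took 1.31, 0, 0 and 0.226% of the Trav sum in wild-type naive, 0.560, 0.0783, 0.208 and 0.107% in wild-type memory, 0.404, 0.402, 0.169, 0 and 0% in Dock2-deficient naive and 1.01, 0.262, 0.341, 0.941 and 0.594% in Dock2-deficient memory libraries. Its mean of 0.367% rests on 0 to 13 expected reads per library, and the highest value, in wild-type naive 1, came mostly from the pseudogene Trav11n (5.85, beside 1.30 for Trav11d). Trav1 took 0 to 0.538%, on 0 to 4 expected reads. Neither reached the filter of the test.

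Other markers of these cells were read beside them. The summed natural killer T list (Zbtb16, Traj18, Trav11, Trav11d and Klrb1c) was 0 to 3.39 in wild-type naive, 16.6 to 27.7 in wild-type memory, 0 to 2.74 in Dock2-deficient naive and 3.44 to 15.7 in Dock2-deficient memory libraries. In wild-type memory cells most of it was Klrb1c, the NK1.1 antigen, with a mean of 20.3 beside 22.3 for the summed list. Klrb1c was 0 to 2.26 in wild-type naive and 15.7 to 27.1 in wild-type memory libraries (3.64, SE 0.80, adjusted p = 0.0111, limma). Only memory libraries reached the filter value of 10. The gene thus entered the test through the state in which it was higher, and its p-value is no separate support. In Dock2-deficient mice it was not called (2.25, SE 0.71, adjusted p = 0.114, limma). In Dock2-deficient memory cells Klrb1c had a mean of 6.70 beside 9.98 for the list. It was at 0 in memory 1, where Trav11d was 5.33, and at 9.76 in memory 4, where Trav11d was 5.96. Zbtb16, the transcription factor that defines these cells, was at most 1.66, and Traj18 was at 0 throughout. Of the 60 Traj rows only 1 was above 0 in any library, so J segments cannot be read from the table. The mucosal-associated invariant list (Trav1, Traj33, Zbtb16 and Il23r) summed to 0 to 3.41, with Il23r at 0 in all libraries.

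The 10 members with a DV name, which delta chains can also use, gave 5.99% ± 1.27 (SD, n = 4) of the Trav sum in wild-type naive, 6.62% ± 0.986 (n = 4) in wild-type memory, 5.36% ± 1.54 (n = 5) in Dock2-deficient naive and 5.99% ± 0.938 (n = 5) in Dock2-deficient memory libraries. The gamma delta list of 7 genes summed to 5.18 to 11.3 in wild-type naive and 49.8 to 82.2 in wild-type memory libraries. In Dock2-deficient libraries it was 39.9 to 87.4 for naive and 19.5 to 31.0 for memory cells. Most of each sum came from the constant genes Trdc, Tcrg-C1, Tcrg-C2 and Tcrg-C4. The other members were near 0 in every group, with Trdv4 at most 0.885, Sox13 at most 2.20 and Blk at most 0.909. Trdc, the delta constant gene, had means of 3.98 and 14.6 in wild-type naive and memory and of 32.8 and 10.4 in Dock2-deficient naive and memory libraries. It rose from naive to memory cells in wild type (1.64, SE 0.39; adjusted p = 0.0228, limma) and fell in Dock2-deficient mice (-1.52, SE 0.35; adjusted p = 0.0146), an interaction of -3.16 (SE 0.52; adjusted p = 0.0287). Between the genotypes it was higher in Dock2-deficient naive cells (2.73, SE 0.37; adjusted p = 0.000646). The part of gamma delta cells in segment usage was not tested. Markers of other cells were low, with the NK list at 0 to 12.4, the CD4 T cell list at 0 to 28.0, the B cell list at 23.1 to 57.5 and the myeloid list at 5.66 to 44.5.

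The genes that assemble and carry the receptor were counted from a list of 26, of which 19 had enough signal in the single-row fit. In wild type 1 of 19 was called between memory and naive cells, against 2.52% of all genes, and 4 of 19 had an unadjusted p under 0.05 (Bcl2l1, Cd247, Xrcc6 and Cd8a), against 12.1%. In Dock2-deficient mice 1 of 19 was called, against 2.82%, and 2 of 19 had such a p (Bcl2l1 and Trac), against 13.4%. Both calls were Bcl2l1, whose product Bcl-xL keeps thymocytes alive during alpha chain rearrangement. It was 9.91, 21.7, 12.6 and 37.3 in wild-type naive and 68.0, 52.9, 45.1 and 42.8 in wild-type memory libraries (1.47, SE 0.39; adjusted p = 0.0455). In Dock2-deficient libraries it was 12.7, 18.3, 26.6, 10.4 and 6.97 for naive cells, against 76.3, 70.4, 63.6, 66.4 and 49.5 for memory cells (2.17, SE 0.35; adjusted p = 0.000519). The groups do not overlap in either genotype, but the wild-type call was lost without any 1 of 7 of the 8 libraries and under 4 other settings.

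Of the rest of the list, Rag1, which cuts the segments for joining, was at 0 in all 18 libraries. As background, mature T cells have ended rearrangement. Cd3e, a signalling chain of the receptor complex, had group means of 2298, 2648, 2793 and 2215 in wild-type naive and memory and in Dock2-deficient naive and memory libraries, with log2 differences of 0.20 and -0.32 between memory and naive. Cd8a and Cd8b1, the coreceptor chains, had log2 differences of -0.53 and -0.58 between memory and naive wild-type cells. The same differences in Dock2-deficient mice were -0.16 and 0.06, and none was called. Between the genotypes Cd8a and Cd8b1 differed by 0.24 and 0.21 in naive cells. In memory cells they were higher in Dock2-deficient libraries by 0.61 (SE 0.22) and 0.86 (SE 0.29). For both genes the memory groups did not overlap (4.44% of all genes), but neither was called (adjusted p = 0.253 and 0.238, limma). Between the genotypes limma called 0 of 19 in naive cells (0.138% of all genes), with 0 of 19 at an unadjusted p under 0.05 (6.1%). In memory cells it called 0 of 19 (0.053%), with 6 of 19 at such a p (16.4%). The interaction gave 0 of 19 (0.0318%) and 2 of 19, Xrcc6 and Prkdc, at such a p (5.21%). The median log2 difference of the 19 genes was 0.00 and -0.07 between memory and naive cells of wild-type and Dock2-deficient mice. Between the genotypes it was 0.18 for naive and 0.33 for memory cells.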

How the data were processed

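Smartseq2 libraries (full-length cDNA) came from RNA of a Qiagen RNAeasy kit, per the labels' protocols. The submitters' processing notes name mm10 as the build and list RSEM, bcl2fastq and FastQC as tools; for versions and annotation, they are not given in the sources used here. As data the authors deposited 1 table of normalized signal for 46983 genes: RSEM expected counts scaled by 1 factor per library, judged from the values, which lie on a grid of 0.01 reads (59.5 to 69.3% of them whole, within 0.005). Expected reads were read back from that grid. RSEM shares reads among near-identical copies by estimation.

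Groups and replicate numbers came from the sample titles. Family shares were multiplied by the median Trav sum (505.53) and replaced the Trav rows in the table. Values were tested as log2(value + 1), which understates changes of low genes, with limma 3.58.1 in R 4.3.3 (variance trend, 1 mean per group, 14 residual degrees of freedom), for features of at least 10 in at least 4 libraries. Tests were two-sided, with Benjamini-Hochberg adjustment over all features and a threshold of 0.05. The code was tested on simulated data. Shares are parts of a whole, so families do not move independently. Coding sequences came from GENCODE M21 and were aligned with Biopython 1.88, identity being matches over the shorter sequence. The memory comparisons share no libraries with each other, but each shares libraries with both genotype comparisons.

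Members and lists were chosen with earlier results of these data known. The text names the 6 largest families, the families called, the 2 families of at least 1% share with the widest difference in each comparison, Trav11 and Trav1, each called row and the largest row of each such family, the 3 genes most like the Trav sum, and Bcl2l1, Trac, Rag1, Cd3e, Cd8a and Cd8b1. Other rows, families and list genes named beside a count of 5 or fewer, as copies, or among the closing observations were chosen after their values were seen. Alternatives were the replicate block, log2(value + 10), no filter, only the groups compared, libraries left out, deposited family sums, usage relative to the median family, only rows without a copy letter and, added after seeing the data, rows divided by exon length.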

Additional observations from a re-analysis of the deposited data

Results flagged for a closer look

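A library was picked out here when its gap to the nearest library of its group, divided by the group's range, passed Dixon's 95% critical value for groups of 4 or 5. Of 60 groups tested, over 15 measures, 7 were picked out, where chance alone gives about 1 in 20. Of the 7, 3 concern Dock2-deficient memory 5. Its Trav6 share was 6.74%, beside 9.88 to 10.5% in the other 4 libraries. Its Trav14 share was 11.9%, beside 8.18 to 9.17%, and its Trav13 share was 11.8%, beside 5.73 to 7.38%.

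Wild-type memory 1 had the highest effective number of families, 12.3 beside 10.4 to 10.6, and the highest Trav14 share, 8.96% beside 6.87 to 6.94%. Wild-type memory 3 had the lowest Trav16 share, 3.54% beside 5.12 to 5.32%. Dock2-deficient naive 1 had a Trav13 share of 9.44%, beside 6.04 to 6.70%.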

How the results depend on the processing

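Family counts kept 0 calls under every alternative in 4 of the 5 comparisons. Between memory and naive cells of wild type, 1 family was called when only rows without a copy letter were used: Trav16, which is then the single Trav16 row (2.85, adjusted p = 0.0291). The cause was not tested. The count of called rows in that comparison was 2 with log2(value + 10) and 0 with only the groups compared. It was also 0 without both wild-type memory 4 and Dock2-deficient memory 5, and 0 to 3 without 1 library. Without the filter, which tests more genes, the Trav16 row had an adjusted p of 0.0648 and 1 other row, Trav8-2, was called. The count of called receptor genes in wild type was 0 under the replicate block, without the filter and with only the groups compared. It was 0 without both wild-type memory 4 and Dock2-deficient memory 5 too, and 0 to 1 without 1 library.

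Trav15 reversed between memory and naive wild-type cells to -0.0602 without naive 2 (up to 1.01 without another library) and between memory and naive Dock2-deficient cells to 0.0447 without memory 3 (down to -0.701 without another). The effective number counted over single rows differed between groups by 1.38 and -3.01 (memory minus naive, wild type and Dock2-deficient) and by 5.25 and 0.857 (Dock2-deficient minus wild type, naive and memory), beside 0.19, -0.29, 0.13 and -0.35 for families. Of 219 alternative values of tested log2 differences, 198 kept direction and side of the threshold. Of 254 alternative counts, 232 stayed within 1.5 times, which does not show that the same rows were called. Same-numbered libraries correlated at -0.253 to 0.303, above 0.1 in 3 of 9 pairs and best with their own number in 4. Such low correlations do not decide whether equal numbers mark paired libraries. Among Dock2-deficient libraries Xist was high only in naive 1 and memory 1, which carry the same number. The replicate block left 1 Trav row called in wild type and no family in any comparison. Low depth limits families under 1% most.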

Other observations

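Several small families had values that no comparison tested, being below the filter. Trav2, the second most distal family of the locus, took 0.716% ± 0.162 (SD, n = 4) in wild-type naive and 0.425% ± 0.378 (n = 4) in wild-type memory libraries, and 0.499% ± 0.246 and 0.332% ± 0.429 (n = 5 each) in the Dock2-deficient ones. Trav19, near the proximal end, had means of 0.433% and 0.784% (wild-type naive, then memory) and of 0.462% and 0.896% (Dock2-deficient naive, then memory), with SDs of 0.368 to 0.545. Trav17 ranged from 0 to 2.52%, its highest value being in wild-type naive 2. Trav21, whose only row has a DV name, had means of 0.987% and 0.861% (wild-type naive, then memory) and of 0.488% and 0.441% (Dock2-deficient naive, then memory), with SDs of 0.415 to 0.722. Ranges of all 4 families overlap between the groups.

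Trav18, Trav20 and Trav22 were almost silent, above 0 in 1, 3 and 2 of the 18 libraries.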
